A study of Drosophila melanogaster with 2 samples.

Results

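The zinc finger gene ush and the 5 GATA factor genes srp, pnr, GATAe, GATAd and grn were examined for foxo binding in Drosophila melanogaster larvae, as 6 of 13945 protein-coding genes of the annotation. They were chosen by name, with the binding pattern already known, since ush held some of the highest foxo regions. In the annotation they are FBgn0003963 (ush), FBgn0003507 (srp), FBgn0003117 (pnr), FBgn0038391 (GATAe), FBgn0032223 (GATAd) and FBgn0001138 (grn). The number, height and rank of regions at these genes are therefore given as a description, with no test. The data were chromatin immunoprecipitation sequencing (ChIP-seq) of 1 group with 2 biological replicates, numbered 5 and 6 in the labels. Each was chromatin of whole larvae of the third instar, in the wandering stage, males and females together, of a transgenic line that stably expresses foxo with GFP (eGFP in 1 label) fused to its C-terminus. The antibody was against GFP per the sample notes, while the antibody label reads foxo, and the age of the larvae is labelled unknown. There was no second group to compare with, and the control library named in the labels was not analysed here. In chromatin from whole animals, a site bound in few cells and a site bound weakly in many cannot be told apart.

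GATA factors are transcription factors whose zinc fingers recognise the sequence GATA in DNA. The protein U-shaped, made by ush, belongs to the Friend of GATA (FOG) family of cofactors, which attach to the zinc finger of a GATA factor and change what it does at its targets. In the fly, Serpent (srp) is needed for blood cells, the fat body and the endodermal gut, Pannier (pnr) patterns the dorsal ectoderm, the heart and the bristles of the thorax, and GATAe acts in the midgut. Grain (grn) acts in the shaping of larval organs and legs and in motor neurons, and U-shaped works with Serpent in blood cells and with Pannier in the thorax and heart. The factor precipitated here, foxo, is the forkhead transcription factor that insulin signalling holds back.

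Of the 6 genes, ush alone held regions of the authors' thresholded list, which rests on the irreproducible discovery rate (IDR) between replicates. A region counted for a gene when its summit lay in the gene body or within 5 kb of it. By that rule ush held 7 of the 1427 IDR regions, and srp, pnr, GATAe, GATAd and grn held 0. Among all protein-coding genes, 20.0% held at least 1 IDR region, so 1 of 6 is near the background and says nothing about GATA factors as a family. At least as many IDR regions as at ush were found at 7 protein-coding genes, ush included, or 0.0502% of them.

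The sequences at the summits are shown first, for the highest ush regions and for regions whose words or replicates are taken up in the results. Each is 201 bases of the plus strand of the dm6 assembly, from the RefSeq copy of Release 6, centred on the summit of the pooled list. Capitals mark the GATA hexamers (the word AGATAA, the word AGATAG, the word TGATAA and the word TGATAG), the FOXO core TGTTTAC and the GAGA word GAGAGAG, each on either strand, so that a word of the minus strand reads as its reverse complement (the GAGA word as CTCTCTC), and overlaps between words were kept.
ush intron, highest region, chr2L:481000-481200: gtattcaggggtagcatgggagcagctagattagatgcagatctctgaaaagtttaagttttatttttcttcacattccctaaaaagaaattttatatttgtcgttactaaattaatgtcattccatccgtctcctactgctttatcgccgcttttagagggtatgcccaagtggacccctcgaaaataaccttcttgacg
ush intron, upstream of cbt, chr2L:479944-480144: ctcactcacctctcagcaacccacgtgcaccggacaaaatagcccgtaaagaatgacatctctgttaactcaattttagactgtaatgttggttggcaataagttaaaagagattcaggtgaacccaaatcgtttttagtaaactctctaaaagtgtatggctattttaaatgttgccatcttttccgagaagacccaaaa
ush intron, with the FOXO core, chr2L:485993-486193: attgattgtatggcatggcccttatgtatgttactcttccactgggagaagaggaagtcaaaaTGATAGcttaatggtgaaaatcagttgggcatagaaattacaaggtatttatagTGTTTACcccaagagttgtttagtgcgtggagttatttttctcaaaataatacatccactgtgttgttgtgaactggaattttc
ush-RB start site, with the GAGA words, chr2L:490631-490831: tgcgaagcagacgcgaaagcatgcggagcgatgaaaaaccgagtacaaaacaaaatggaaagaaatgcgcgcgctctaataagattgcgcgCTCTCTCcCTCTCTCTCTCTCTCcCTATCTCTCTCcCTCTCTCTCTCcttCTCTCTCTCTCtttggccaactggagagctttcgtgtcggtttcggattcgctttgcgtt
between srp and GATAe, chr3R:16005005-16005205: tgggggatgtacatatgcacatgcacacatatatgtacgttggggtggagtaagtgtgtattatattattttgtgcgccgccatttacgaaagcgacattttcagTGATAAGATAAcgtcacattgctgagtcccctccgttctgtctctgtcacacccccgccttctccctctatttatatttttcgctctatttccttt
GATAd intron, chr2L:10334967-10335167: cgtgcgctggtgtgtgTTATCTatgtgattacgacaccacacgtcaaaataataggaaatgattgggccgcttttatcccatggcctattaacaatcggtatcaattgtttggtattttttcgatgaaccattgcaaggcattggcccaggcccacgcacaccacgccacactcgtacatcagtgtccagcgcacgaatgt

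Neither of the highest ush regions held any of the searched words within 100 bp of its summit. The region with the FOXO core also held a TGATAG. The region at the ush-RB start site held 13 overlapping placements of the GAGA word and a GATA hexamer that overlaps them. Between srp and GATAe, TGATAA and AGATAA overlap by their last and first base and lie just beyond the summit. A word is a match of letters and does not show that a factor is bound.

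The gene ush spans 2L, 476220 to 540560, on the plus strand and has 4 annotated start sites, of which the first, at 476220, serves ush-RD and ush-RE. All 7 IDR summits lay in introns of ush-RD. Its first intron, of 49060 bp, held 6 of them and the intron of 10586 bp that follows held the other. The 6 stood 3824, 4880, 8323, 9634, 9873 and 14511 bp after the first start site, and the last stood 54192 bp after it. A span of 10687 bp thus held 6 IDR summits, with gaps of 239 to 4638 bp between neighbours, and the next gap was 39681 bp. The first 15 kb of ush held 4.00 IDR summits per 10 kb and the remaining 49.3 kb of its body held 0.203, where the genome held 0.107. The cut at 15 kb falls just after the last of the 6, so this contrast follows from where it was drawn. In only 1 other place on the 6 chromosomes did 6 or more IDR summits lie within such a span, with 8 in and beside Raf, which encodes a kinase of the MAPK pathway (X, 2293623 to 2304081). The span and the number 6 were those of ush itself, so this is a description and no test.

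**Figure D1:**
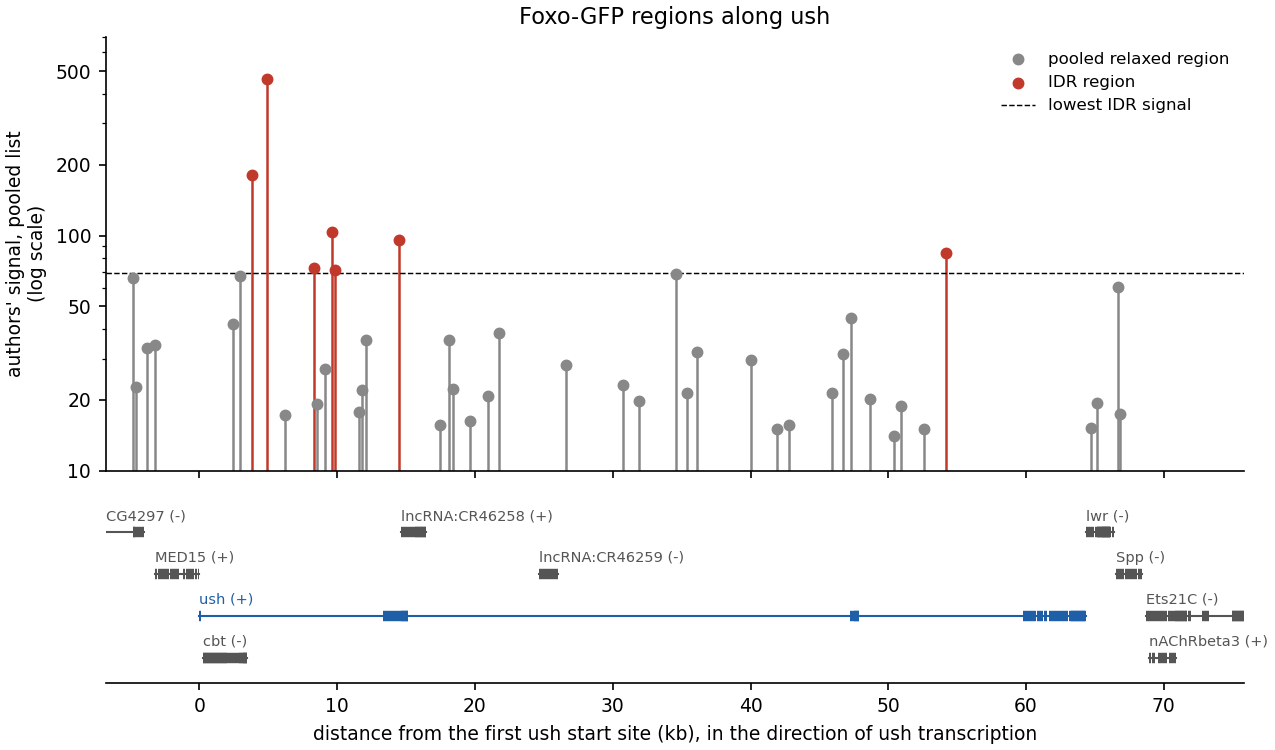
Each stem is a region of the pooled list in the ush window, at its summit's distance (kb) from the first ush start site, with the authors' signal on a log axis, and gene models are below with exons as blocks. Red stems are IDR regions, of which 6 stand within the first 15 kb of ush, and the highest of all (464) lies upstream of the start of cbt, whose gene is inside ush on the other strand.

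The first intron of ush encloses another gene. This is cbt (cabut), which encodes a zinc finger transcription factor that responds to sugar through Mondo-Mlx, and it lies on the minus strand (2L, 476446 to 479688) with its start site 3468 bp inside ush. The height of a region is given as the authors' own signal, whose scale is not stated. The highest region of the locus (2L, 480942 to 481249) had a signal of 464 and ranked 6 of 30000 in the pooled list. Its summit was 1412 bp upstream of the cbt start site and 4880 bp from the nearest ush start site. The next (2L, 479854 to 480233) had a signal of 181, ranked 118 and stood 356 bp upstream of cbt and 3824 bp from an ush start site. Another region nearer to cbt (2L, 484353 to 484732) had a signal of 72.6, ranked 1269, and its summit was 4855 bp from cbt and 6292 bp from the nearest ush start site. These 3 summits were nearer to cbt than to any ush start site. Binding lists do not say which gene a region acts on, so the highest signals of ush are also those of cbt. Leaving out the 3, ush kept 4 IDR regions with signals of 71.3 to 104, an alternative added after the data were seen.

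Of the 4 regions nearer to ush start sites, 1 lay at a promoter. Its summit was 104 bp upstream of the start of ush-RB, at 490835, in sequence that is 5′ UTR in ush-RE (2L, 490541 to 490920; signal 95.3, rank 615), and the non-coding gene lncRNA:CR46258 starts at the same base. A region in the first intron (2L, 485664 to 486043; signal 104, rank 515) had its summit 4981 bp upstream of ush-RB. Beside it, 239 bp further on, stood the region with the FOXO core (2L, 485903 to 486282; signal 71.3, rank 1317). The last of them (2L, 530222 to 530601; signal 84.0, rank 865) stood 6676 bp after the start of ush-RC. It was the only IDR region among the 4 pooled summits of the intron near the 3′ part of the gene. The lowest IDR signal of the series was 69.0. Just inside that limit stood the ush region of 71.3, and just outside stood ush regions of 68.4 (rank 1464) in the first intron, 67.6 (rank 1507) within cbt and 65.9 (rank 1608) within CG4297.

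Both replicates placed 3 of the 7 ush regions high in their lists, and the other 4 were high in 1 replicate. The replicate lists each hold 30000 regions on scales that need not be shared, so ranks are compared and signals are given for each. The highest region had a signal of 234 and rank 8 in replicate 5, and 283 and rank 2 in replicate 6. The region just upstream of cbt had 108 and rank 93 in replicate 5, and 70.2 and rank 319 in replicate 6. The intronic region of pooled signal 104 had 47.5 and rank 623 in replicate 5, and 56.1 and rank 647 in replicate 6. These 3 stood among the first 1427 regions, the number of IDR regions, in both replicates.

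The 4 other ush IDR regions were that high in 1 replicate only. The ush-RB promoter region had 15.3 and rank 10069 in replicate 5, and 70.7 and rank 308 in replicate 6. The region with the FOXO core went the other way, with 53.0 and rank 480 in replicate 5 and 13.4 and rank 13725 in replicate 6. The region near the 3′ part of the gene had 29.5 and rank 1999 in replicate 5, and 54.5 and rank 710 in replicate 6. The cbt-side region of pooled signal 72.6 had 20.0 and rank 5350 in replicate 5 and 54.1 and rank 730 in replicate 6, where the replicate 6 summit was 147 bp away. All 7 were found in both replicate lists by a summit within 150 bp, as were 92.8% of all IDR regions. A q-value of at most 0.01 in both lists was found for 3 of the 7. That limit was passed by 3.54% of all replicate 5 regions and 22.9% of all replicate 6 regions. The shares of all IDR regions with such a q-value, or so high a rank, in both replicates are not given here. Among the first 1427 regions, replicate 5 listed 4 summits in the ush window. Replicate 6 listed 8 there, of which 2 were summits of 1 interval, the highest region.

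**Figure D2:**
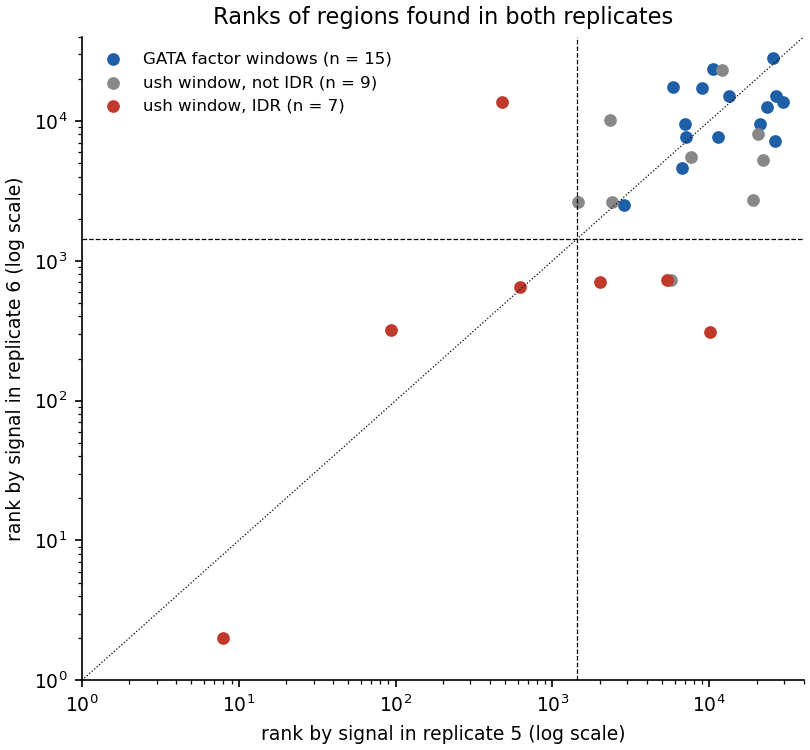
Each point is a pooled region of the 6 windows with a summit within 150 bp in both replicate lists, placed by its rank by signal in replicate 5 and in replicate 6 on log axes, with a dotted line of equal rank and dashed lines at rank 1427. Only red points, the 7 IDR regions of ush, and the ush region of pooled signal 68.4 pass a dashed line; 3 red points pass both, and the regions of the GATA factor windows lie beyond rank 1427 in both replicates.

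Most pooled regions at ush were below the IDR threshold, and the last pooled summit in its body was that of the IDR region near the 3′ part. The pooled list, which the authors call peaks and background, held 45 summits in the ush window of 74.3 kb, or 6.05 per 10 kb, where the median protein-coding gene had 2.68. Of the 45 summits 35 lay in introns of ush, 2 in its 5′ UTRs and 0 in its coding sequence, and 4 lay on each side of the gene. Of the 45, 16 had a match in both replicate lists, 9 in replicate 5 only, 16 in replicate 6 only and 4 in neither. Over the whole pooled list 31.5% of regions had a match in both, and at ush 35.6%. The start shared by ush-RD and ush-RE had no pooled summit within 500 bp, while a summit 60 bp after the start of ush-RA had a pooled signal of 44.7 (rank 3792), with rank 7612 in replicate 5 and rank 5543 in replicate 6.

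Long genes hold more regions, and ush is long. Among the 187 protein-coding genes with windows 0.8 to 1.25 times as long as that of ush, 35.8% had an IDR region, the median number was 0 and the maximum 8, and 3 including ush had at least 7. The 5 genes with more IDR regions than ush were Eip75B with 11, a nuclear receptor gene that responds to ecdysone, Raf with 10, tara with 9, bun with 9 and Eip74EF, an ecdysone-responsive ETS factor gene, with 8. Their highest signals were 267, 221, 156, 132 and 92.7, each below the 464 of the region shared by ush and cbt. Per 10 kb of window, ush held 0.942 IDR summits, and 507 genes had more.

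**Figure D3:**
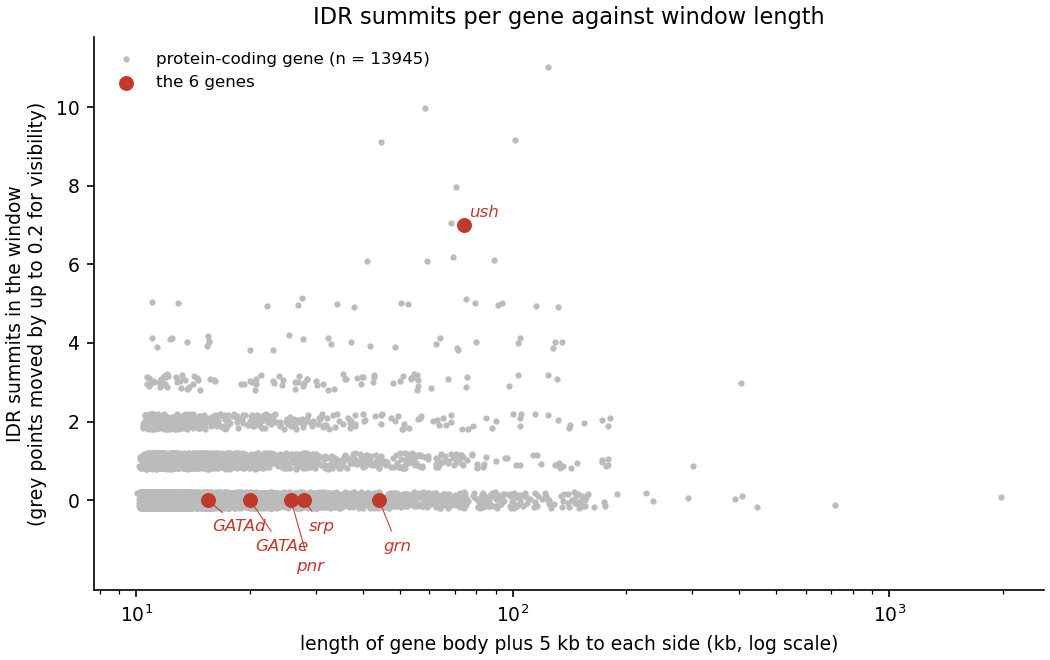
Each grey point is 1 of 13945 protein-coding genes, by the length of its window (gene body plus 5 kb to each side, kb, log axis) and the number of IDR summits in it, and the 6 genes are red. The point for ush stands at 7 summits and 74.3 kb, and the 5 GATA factor genes stand at 0 between 15.5 and 44.1 kb.

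The GATA factor genes held no region as high as the lowest IDR signal of 69.0. Their windows held 59 pooled summits, counting those in overlapping windows once, with a median signal of 20.0, where the median of the whole pooled list was 21.4. The 3 genes srp, GATAe and pnr are neighbours on 3R in the same orientation, and their windows together cover 15981152 to 16046796. Of the 59 summits, 15 (25.4%) had a match in both replicate lists. By median signal of the window the order was GATAd at 30.3, srp at 28.2, ush at 27.0, GATAe at 22.1, grn at 17.8 and pnr at 16.2, and the ranges of all 6 windows overlapped. Each GATA factor gene was also set beside protein-coding genes with windows 0.8 to 1.25 times as long. The share of those with a lower highest signal was 72.9% for GATAd, 47.4% for GATAe, 45.2% for srp, 44.7% for grn and 10.4% for pnr.

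**Figure D4:**
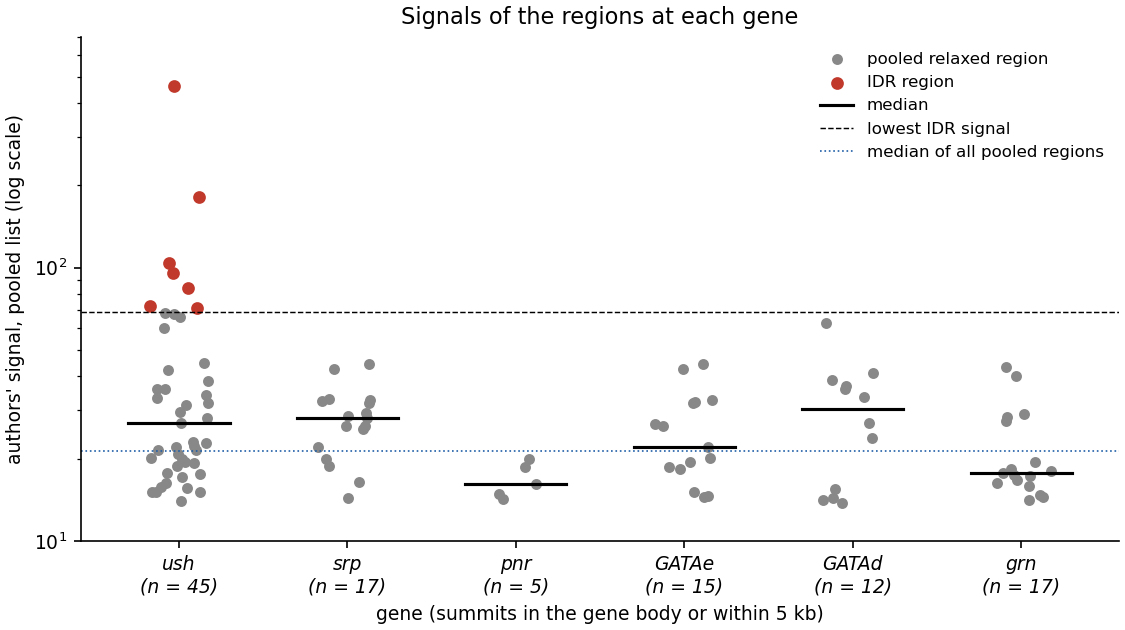
Each point is a region of the pooled list in the window of a gene, with the authors' signal on a log axis and a bar at the window's median. The dashed line is the lowest IDR signal (69.0), which only the 7 red points of ush exceed, and the dotted line is the median of all pooled regions (21.4). Regions between srp and GATAe and between GATAe and pnr can appear under both genes.

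At the starts of these genes, pooled regions were present at heights that differed from gene to gene. Each of the 6 genes had a pooled summit within 500 bp of a start site of its own, as did 50.1% of protein-coding genes, and the members have up to 4 start sites. A summit anywhere in the window was found for all 6 and for 87.0% of protein-coding genes. An IDR summit within 500 bp of an own start site was found for 1 of the 6, ush, and for 6.25% of protein-coding genes. Among the 6985 genes with a pooled summit there, the median of the highest signal was 33.0. The members' values were 95.3 at ush, 43.3 at grn, 41.2 at GATAd, 32.3 at GATAe, 29.3 at srp and 19.8 at pnr. Of those 6985 genes, 5.34% had a higher value than ush and 80.7% a higher value than pnr.

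The srp gene (3R, 15986152 to 16004085) had 17 pooled summits in its window and none with a pooled q-value of at most 0.01. In this window, 4 of 18 regions of replicate 6 and 0 of 12 of replicate 5 passed it. Over the whole lists the shares were 22.9% and 3.54%, so these counts are near the background. At the start of srp-RA and srp-RB, a summit 14 bp upstream had a pooled signal of 29.3 (rank 8719), with 19.2 and rank 5842 in replicate 5 and 11.3 and rank 17536 in replicate 6. The highest summit in the gene body, 745 bp upstream of the same start, had 33.1 (rank 6977), no match in replicate 5 and 23.9 in replicate 6 (rank 5256). The promoter summit was thus higher in the order of replicate 5, and the upstream summit was listed by replicate 6 alone.

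Between srp and GATAe, which are 5019 bp apart, lay the strongest regions of this gene cluster. The interval held 6 pooled summits with signals of 22.1 to 44.3, 5 of them inside the gene of lncRNA:CR42839. The highest (3R, 16004915 to 16005294; 44.3, rank 3880), whose sequence is shown above with the overlapping TGATAA and AGATAA, had 25.6 and rank 2865 in replicate 5 and 33.7 and rank 2492 in replicate 6. It was below the IDR limit, and it was the highest region of both the srp and the GATAe windows.

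GATAe (3R, 16009105 to 16019133) had 15 pooled summits in its window, and the 3 highest lay between it and srp. Upstream of the start of GATAe-RA, a summit at 420 bp had 32.3 (rank 7273), with 20.6 in replicate 5 (rank 4921) and no match in replicate 6. A neighbour at 214 bp had 20.0 (rank 16741), no match in replicate 5 and 25.0 in replicate 6 (rank 4801). Each of these promoter summits was thus matched in 1 replicate. The replicate 5 region (3R, 16011676 to 16012031) and the replicate 6 region (3R, 16011826 to 16012215) overlap, however. Both replicates therefore listed a region just upstream of the GATAe-RA start, at similar ranks. At the start of GATAe-RB and GATAe-RC a summit 104 bp inside the gene had 18.2 (rank 19456).

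The pnr gene (3R, 16026079 to 16041796) had the fewest and lowest regions. Its window of 25.7 kb held 5 pooled summits, or 1.94 per 10 kb, with signals of 14.3 to 19.8. The highest, 30 bp upstream of the start of pnr-RB (rank 16962), had 11.3 in replicate 5 (rank 19466). It had no match within 150 bp in replicate 6. Of the 5 summits 4 had none in either replicate, beside 11.4% of all pooled regions. Replicate 6 did list a summit 30 bp after the start of pnr-RA and pnr-RC (12.5, rank 15235). Another stood 128 bp upstream of pnr-RD (14.0, rank 12844), and both regions overlap pooled regions of the window. A further pooled region (3R, 16042453 to 16042832) was overlapped by a region of each replicate. These had 10.1 and rank 24554 in replicate 5 and 16.2 and rank 10253 in replicate 6. Among the 949 protein-coding genes with windows 0.8 to 1.25 times as long, 10.4% had a lower highest signal. Depth is unknown, so weaker binding at pnr is not shown to be absent.

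**Figure D5:**
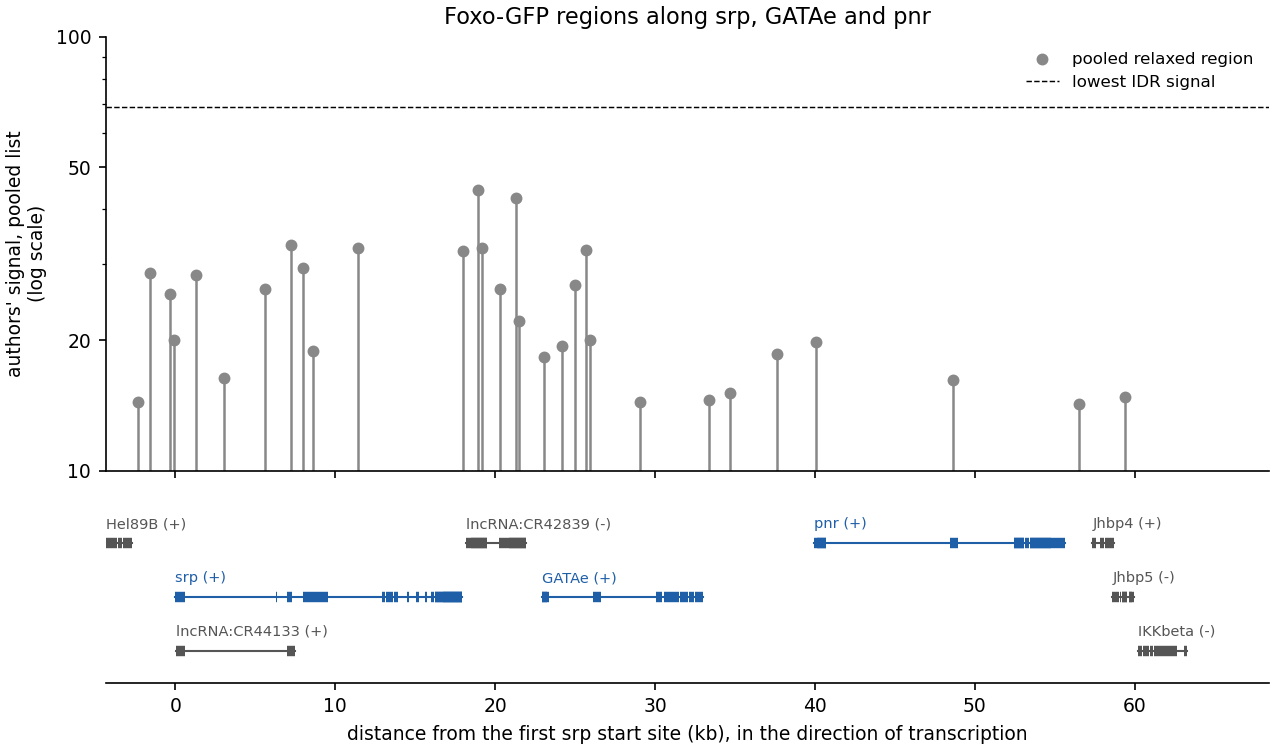
Each stem is a region of the pooled list along srp, GATAe and pnr, at its summit's distance (kb) from the first srp start site, with the authors' signal on a log axis and gene models below with exons as blocks. No stem reaches the lowest IDR signal (69.0), the highest (44.3) lies between srp and GATAe, and those in the pnr window are at most 19.8.

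GATAd (2L, 10333734 to 10339185), a GATA-type zinc finger gene, had its highest region in 1 replicate only. A region in its first intron (2L, 10334877 to 10335256) had a pooled signal of 62.5 and rank 1820. In replicate 6 it had 72.3 and rank 291, and in replicate 5 no summit lay within 150 bp. A second summit in the same intron had 23.9 in the pooled list (rank 12448), 47.1 and rank 1073 in replicate 6, and again no match in replicate 5. These were the 2 regions by which replicate 6 alone would put a GATA factor gene among its first 1427 regions. At the promoter, 110 bp after the start of GATAd-RA and GATAd-RC, both replicates listed a region, at 17.9 and rank 6984 in replicate 5 and 17.0 and rank 9497 in replicate 6, and the FOXO core lay within 100 bp of its pooled summit. Of the 12 pooled summits in the window, 8 were nearer to a start site of another gene, among them SamDC and Sps2.

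The grn gene (3R, 8147368 to 8181444, minus strand) had 17 pooled summits along 34.1 kb, and no other annotated gene overlaps its window. Of the 17, 7 were nearer to the start of tRNA:Arg-ACG-1-10, outside the window, than to that of grn. The highest was at its start site, 29 bp upstream, with 43.3 (rank 4058), and had 18.2 and rank 6671 in replicate 5 and 25.5 and rank 4602 in replicate 6. In an intron stood a region (3R, 8153946 to 8154325) 27308 bp from the grn start and 13094 bp from that of the tRNA gene. It had 40.0 (rank 4783), no replicate 5 summit within the matching distance, and 32.1 and rank 2777 in replicate 6. Replicate 5 did list an overlapping region (3R, 8153807 to 8154162), with 11.3 and rank 19432, whose summit lay just beyond that distance. Of the 17 summits 15 lay in introns, and 2 had a match in both replicates.

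GATA hexamers were found near summits at these genes at a share close to that of the whole list. Within 100 bp, 42 of 104 member summits had 1 (40.4%, 95% Clopper-Pearson interval 30.9 to 50.5, counting error only), beside 35.5% of all 30000 pooled summits and 36.6% of all IDR summits. By gene, with regions of overlapping windows under each, the counts were 16 of 45 at ush, 9 of 17 at srp, 6 of 15 at GATAe, 7 of 12 at GATAd, 6 of 17 at grn and 0 of 5 at pnr. Of the 7 IDR regions of ush 3 had a hexamer. The FOXO core lay near 4 of the 104 (3.85%) and near 5.93% of all pooled summits and 6.52% of IDR summits. GAGAGAG lay near 7 of the 104, 6 of them at ush, and near 4.99% of all pooled summits. Summits closer than 200 bp share part of their windows, so these counts are not of separate sequences.

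A list of 40 genes linked with GATA factors, or with tissues in which they act, was drawn from textbook knowledge. They are called partner genes here, and regulation by a GATA factor was not required of each. It held cofactors, partners of the LIM complex, patterning genes of the thorax, and heart, blood cell and gut genes. An IDR summit in the gene body or within 5 kb was found for 13 (32.5%), beside the 20.0% of all protein-coding genes, and 27 had none. For the gene body alone the count was 5 (12.5%), beside 4.85% of all protein-coding genes. Both background shares cover genes of every length, and long genes hold more regions. Among genes with windows 0.8 to 1.25 times as long as that of ush, 35.8% had an IDR summit. The gene ush is longer than every gene of the list. A share for genes as long as those of the list is not given, so how far length accounts for these gaps was not tested. With the 1427 highest regions of replicate 6 in place of the IDR list the count was 8 (20.0%), beside 19.5%, near the background. With those of replicate 5 the count was 13, as with the IDR list. The share of all protein-coding genes is not given for that replicate. The median highest pooled signal of the window was 44.2 in the list and 41.8 over all protein-coding genes with a region. An IDR summit within 500 bp of an own start site was found for 2 of the 40, fkh and mirr (5.00%), near the 6.25% of all protein-coding genes. No member of the list had more than 2 IDR regions, where ush had 7.

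For 7 of the 13 genes the highest IDR region was nearest to a start site of the gene itself, and for 6 it was nearer to another gene. The Mef2 region (signal 257; 1059 bp upstream of a start of Mef2, which encodes the muscle MADS-box factor) was nearest to Pal1. The region by tup, an Islet-type LIM homeodomain gene (197), was 23502 bp from the gene's own start and nearest to CG10602. The region in an intron of Ssdp, whose protein joins the LIM complex, had 164 and stood 2461 bp after its start. At fkh, the forkhead gene of the gut and salivary glands, the region (147) stood 227 bp upstream. At CtBP, whose corepressor FOG proteins bind, an intronic region (112) stood 1017 bp before a start of the gene. Of these 5, Mef2 ranked 38 and 67 in replicates 5 and 6, tup 90 and 144, Ssdp 402 and 83, fkh 304 and 256, and CtBP 1410 and 356.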

How the data were processed

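Foxo-GFP ChIP-seq of whole larvae was deposited as interval lists for 2 replicates of 1 group. Per the notes deposited with each sample, the authors made a relaxed list of peaks and background per replicate and pooled, and an IDR thresholded list. For the caller, the aligner and their versions no source used here gives a name. The signal deposited by the authors is a value per region on a scale not stated. The deposited significance column holds −log10 of a q-value. Read depth is unknown, and intervals cover counting error only.

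The dm6 lists were analysed. Each relaxed list held 30000 regions, and the 1427 IDR regions were the 1427 of highest pooled signal. Genes came from Ensembl release 115 without transposable elements, and sequence from the RefSeq copy of Release 6. Ranks are by signal. Replicate summits were matched within 150 bp. Words were searched within 100 bp of summits. Python 3.11.15 and scipy 1.17.1 were used, and counting and search were tested on simulated data. With 1 group and members known in advance no test was run. Members and lists were chosen with earlier results of these data known. Named genes were the members, cbt, genes nearest to their IDR summits, the 5 partner genes of highest signal and the 5 genes with most IDR summits, and mirr and the neighbours of other regions named in the text (SamDC, Sps2, CG4297, lncRNA:CR42839, Pal1, CG10602 and tRNA:Arg-ACG-1-10) were added after their values were seen. Alternatives changed the window, threshold, overlap (at least 1 bp), word distance, matching distance and replicate. The dm3 lists were not used here.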

Additional observations from a re-analysis of the deposited data

How the results depend on the processing

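Over the 7 other window, threshold and replicate settings, ush kept at least 1 region. The 5 GATA factor genes stayed at 0 except with the highest regions of replicate 6 alone, which there replace the IDR regions. With 1 replicate's own 1427 highest regions, 1 to 2 members had a region, the ush window held 4 to 8, the GATA factor windows 0 to 2, both at GATAd, and 8 to 13 partner genes had one. Among the 713 IDR regions of highest signal ush held 4 and 6 partner genes had one. Without summits nearest to cbt, an alternative added after seeing the data, ush held 4. The partner count was 5 for the gene body alone and 7 with 1 kb to each side. For the 713 highest regions, the 1 kb setting and replicate 5, shares of all protein-coding genes are not given. Those partner counts therefore cannot be set against a background. A GATA hexamer was near 26.9% of member summits within 50 bp and 62.5% within 200 bp, and TGATAA alone near 18.3%. Of the 7 ush IDR regions, 4 matched both replicates within 50 bp and 3 by regions with a q-value of at most 0.01. The cause was not tested beyond what each setting itself changes. No paired analysis was possible because both replicates belong to 1 group. Read depth is unknown, no untagged or input signal was analysed here, and relaxed lists include background, so a weak region is not shown to be bound.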

Other observations

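The interval of the highest ush region was listed more than once in replicate 6, with summits of signal 283 and 72.0 (ranks 2 and 294), and it was the only interval in any of the 4 dm6 lists to be listed so. Within 200 bp of the pooled summit, 11 of the 12 GATAd regions held a GATA hexamer (91.7%, 95% Clopper-Pearson interval 61.5 to 99.8), beside 56.7% of all pooled regions. Several of those windows overlap, the gene was picked after the values of all 6 were seen, and this was not tested.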
